A study of Mus musculus with 6 samples.

Results

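Single wells of the fibroblast chip were searched for cells with an inflammatory, acute-phase pattern of transcripts. A well was a member when at least 3 of 7 genes (Saa3, Ccl8, Mmp3, Mmp10, Cxcl5, Hp and Serpina3n) were detected, together with 20 or more unique molecular identifiers (UMIs, each marking 1 captured transcript) over the 7, in a well with 500 or more non-mitochondrial genes. Of 1053 wells named AF or NF on this chip, 1044 had 500 genes and 243 were members, among 2462 such wells on both chips of the series. The 517 wells with 2 or fewer UMIs over the 7 genes are called low wells here, and 284 wells lay between. The members were thus chosen by measured UMIs of these 7 genes, so their levels in members are a description and not a finding.

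All mice were C57BL/6. Immature cardiomyocytes (imCMs) from newborn hearts were co-cultured for a few days with cardiac fibroblasts taken from newborn hearts (NFs) or from adult hearts (AFs), and cells were separated by a dye given before co-culture. Per the study's methods, NFs were plated at a lower number relative to imCMs than AFs were, and fibroblasts were passaged 3 times or more before use. The chip holds 1 library with wells named AF0_1, AF0_2, AF1, AF2, NF0_1, NF0_2, NF1 and NF2. A second chip holds 1 library of cardiomyocytes, and 4 bulk libraries hold imCMs co-cultured with NFs (imCM-NF, n = 2) or AFs (imCM-AF, n = 2). What the 0 and the last digit of a well name stand for is not given in the sources used here, and wells of 1 name are not replicates of a condition. With 1 library per chip no test between well names was possible, and intervals cover counting error only.

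In inflammation, the liver and many connective tissue cells secrete acute-phase proteins, a set of transport, scavenging and protease-inhibiting proteins whose transcription is driven by interleukin-1, tumour necrosis factor and interleukin-6 through NF-kB, C/EBP and STAT3. Fibroblasts also answer these cytokines with chemokines that attract neutrophils and monocytes, and with matrix metalloproteinases that cut matrix proteins. Of the 7 genes, Saa3 encodes serum amyloid A3 and Hp haptoglobin, which binds free haemoglobin. Serpina3n encodes a serine protease inhibitor, Cxcl5 a chemokine for neutrophils and Ccl8 a chemokine for monocytes. Mmp3 (stromelysin-1) and Mmp10 (stromelysin-2) are matrix metalloproteinases.

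Fibroblast markers were read first. At 10000 UMIs drawn from each well, 238 of 238 members and 388 of 389 low wells held at least 3 of 14 fibroblast markers, and the summed marker level had a median of 14217 CPM in members and 13143 in low wells (CPM, UMIs of a gene scaled to a total of 1000000 non-mitochondrial UMIs). This cutoff does not set fibroblasts apart from other cells, since 76.1% of wells named NCM0 on the cardiomyocyte chip reached it too. Of the low wells, 198 of 389 also held at least 3 of 13 cardiomyocyte markers. Member wells had a median of 66704 UMIs (6824 to 326284) and 5187 genes, against 22039 UMIs and 3123 genes in low wells, so a threshold in UMIs favours deep wells. Of 54 wells above the mean plus 2 SD of UMIs, 24 were members. No doublet caller was run, and 259 of the used wells carried a barcode that occurs on the other chip too. Among 5 negative control wells 1 held all 11 UMIs found for the 7 genes, and none passed the rule.

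The name acute-phase fits the members only in part. Cxcl5 was detected in 243 of 243 members and Mmp3 in 208, whereas Saa3 was detected in 154, Serpina3n in 139, Ccl8 in 103, Hp in 94 and Mmp10 in 58. Cxcl5 was the gene with most UMIs in 177 members, Mmp3 in 33 and Saa3 in 11. A chemokine and a metalloproteinase thus carried most members over the threshold. When Cxcl5 was left out of the rule, 111 AF wells and 3 NF wells still passed. Only 5 members held all 7 genes, 17 held 6 and 74 held the minimum of 3.

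The members' 7-gene sum was 61 UMIs at the median and reached 10534, and 107 members lay under 50. Close to the threshold, 22 members held 20 to 25 UMIs and 40 other wells held 15 to 19. A further 82 wells had 20 or more UMIs but fewer than 3 of the genes. At the upper end, 47 members held 200 UMIs or more, of which 16 were AF1 wells, 29 were AF2 wells and 2 were AF0_2 wells.

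Members were almost all AF wells. They made up 30 of 77 AF0_1 wells (39.0%, 95% exact binomial interval 28.0 to 50.8), 78 of 116 AF0_2 wells (67.2%, 57.9 to 75.7), 58 of 129 AF1 wells (45.0%, 36.2 to 54.0) and 66 of 116 AF2 wells (56.9%, 47.4 to 66.1). Among NF wells they were 0 of 185 in NF0_1, which allows a share of up to 1.97%, 1 of 160 in NF0_2, 0 of 167 in NF1 and 10 of 94 in NF2 (10.6%, 5.22 to 18.7). Over all names this was 232 of 438 AF wells (53.0%) and 11 of 606 NF wells (1.82%). Median depth was 40223 UMIs in AF wells and 26838 in NF wells.

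At equal depth and a higher minimum level, AF wells still passed more often than NF wells, and the order within AF wells changed. With each well thinned to 10000 UMIs and a minimum of 10 over the 7 genes, 104 of 400 AF wells and 0 of 473 NF wells passed. This minimum equals 1000 CPM, a higher level than 20 UMIs in a member of median depth. Depth and level thus changed together, and their parts were not separated. AF2 then had the highest share at 41.5% (44 wells) and AF1 had 26.9% (29 wells), while AF0_2 fell from the highest share to 19.8% (23 wells) and AF0_1 had 11.4% (8 wells). The intervals of AF2 (32.02 to 51.5) and AF0_2 (13.004 to 28.3) did not overlap on this scale, which covers counting error only.

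**Figure D1:**
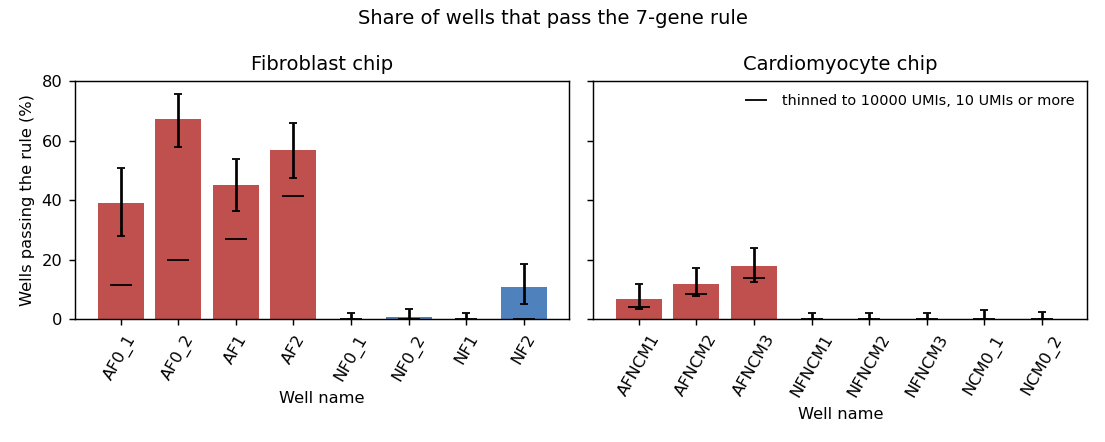
Share of wells passing the 7-gene rule (%) by well name on the fibroblast chip and on the cardiomyocyte chip, with 95% exact binomial intervals. Short black lines give the share after thinning to 10000 UMIs with a minimum of 10 over the 7 genes. AF0_2 is highest before thinning (67.2%) and AF2 after it (41.5%), and NFNCM and NCM0 wells are at 0.

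**Figure D2:**
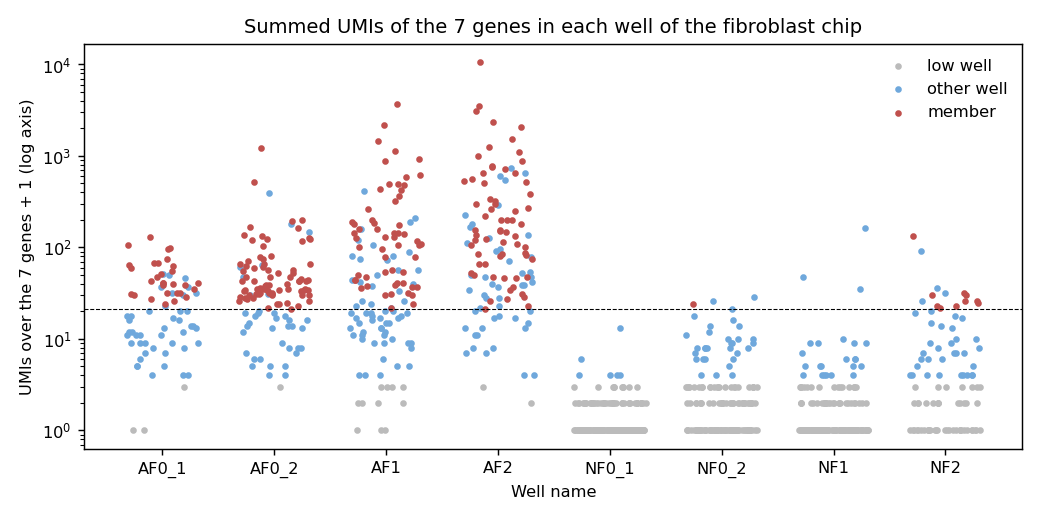
UMIs summed over the 7 genes plus 1 (log axis) in each of 1044 wells, by well name; red points are members, blue points other wells, grey points low wells, and the dashed line marks 20 UMIs. The 14 members above 1000 UMIs are 9 AF2, 4 AF1 and 1 AF0_2 wells.

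The 2 stromelysin genes lie on the same stretch of chromosome 9, Mmp3 at 7445822 to 7455975 and Mmp10 at 7502342 to 7510242 (GRCm38). Their upstream sequences are shown because both were among the rule's genes and carry the same pair of motif matches. Each line gives the 250 bases before the RefSeq gene start (GRCm38.p6, plus strand, chr9:7445572-7445821 and chr9:7502092-7502341), with matches to the C/EBP letters TTGCNNAA and the AP-1 letters TGANTCA on either strand in capitals.
Mmp3: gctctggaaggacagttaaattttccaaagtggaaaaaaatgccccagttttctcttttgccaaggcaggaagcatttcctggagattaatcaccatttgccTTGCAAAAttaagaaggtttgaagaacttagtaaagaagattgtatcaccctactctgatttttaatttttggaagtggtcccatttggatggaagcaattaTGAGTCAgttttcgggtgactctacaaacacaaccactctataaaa
Mmp10: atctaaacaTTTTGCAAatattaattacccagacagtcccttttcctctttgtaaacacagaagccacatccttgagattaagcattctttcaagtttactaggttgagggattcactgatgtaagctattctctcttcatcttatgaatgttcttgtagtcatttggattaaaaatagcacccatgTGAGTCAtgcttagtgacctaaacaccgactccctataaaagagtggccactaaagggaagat
A match is a description and not a binding site. The AP-1 match began 46 bases before the start in Mmp3 and 63 bases before it in Mmp10. AP-1 letters occurred in 6.75% and C/EBP letters in 9.56% of 32851 promoter windows of this length. Saa3 held 1 C/EBP match, Serpina3n held 1 match to an NF-kB motif (4.11% of windows), and Ccl8 held none of the 4 motifs searched, STAT letters TTCNNNGAA (7.02%) among them. The Saa3 window lay inside the RefSeq gene span and the Serpina3n window ran past its start, so neither ended at the RefSeq gene start. Cxcl5 and Hp were not matched in the promoter table.

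CPM levels of the 7 genes were taken over all wells of a name with 500 genes, members or not. The chemokine Cxcl5 was at 303.4 CPM in AF0_1, 579.6 in AF0_2, 2007 in AF1 and 2883 in AF2, and at 8.62 in NF0_1, 13.1 in NF0_2, 60.05 in NF1 and 135.4 in NF2. Every AF name was above every NF name, and neighbours in this order differed beyond their counting intervals except NF0_1 and NF0_2. A single well held 157 of the 259 Cxcl5 UMIs of NF1. At 10000 UMIs a Cxcl5 transcript was found in 82.9% to 91.7% of wells of the AF names and in 8.27% to 38.7% of wells of the NF names.

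Saa3 was at 38.2 CPM in AF0_1, 47.9 in AF0_2, 639.2 in AF1 and 1781 in AF2, and between 1.91 and 13.4 in the NF names. The AF1 and AF2 levels rested on few wells. A single AF2 well held 8545 of the 13657 Saa3 UMIs of that name, and a single AF1 well held 2106 of 3901. Without the richest well of each name, Saa3 was at 298.5 in AF1 and 683.5 in AF2, still above 33.6 in AF0_2 computed the same way. Saa3 was found in a minority of wells of each AF name at 10000 UMIs, from 20% in AF0_1 to 28.4% in AF0_2, with AF1 at 25.9% and AF2 at 28.3%. The share of positive wells in AF1 and AF2 was thus above that of AF0_1 but not above that of AF0_2.

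Ccl8 had the same kind of spread. Its level was 29.8 CPM in AF0_1, 30.1 in AF0_2, 121.3 in AF1 and 341.3 in AF2, and 30.9 in AF1 and 161.7 in AF2 without the richest well. Computed the same way, AF0_1 was at 23.0 and AF0_2 at 23.9, below AF1 by far less than before. Ccl8 was at 0.38 to 12.05 CPM in the NF names.

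Mmp3 was spread over more wells. Its level was 130.3 CPM in AF0_1, 144.0 in AF0_2, 245.8 in AF1 and 478.3 in AF2, and 36.7 in NF2 against 1.91 to 3.87 in the other NF names. At 10000 UMIs, however, wells with an Mmp3 transcript were more frequent in AF0_1 (54.3%) and AF0_2 (55.2%) than in AF1 (31.5%) and AF2 (44.3%). Mmp10 was at 19.1 to 71.1 CPM in the AF names and at 0.93 to 30.3 in the NF names, and a single well held 90 of the 103 Mmp10 UMIs of NF2. Without its richest well, Mmp10 was at 16.0 in AF2 and 3.97 in NF2.

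Hp was at 235.3 CPM in AF1 and 97.2 in AF2, at 9.68 in AF0_1 and 8.73 in AF0_2, and at 0.27 to 9.69 in the NF names. NF2 (9.69) and the AF0 names did not differ beyond the counting intervals for Hp. A single well held 18 of the 33 Hp UMIs of NF2, which was at 4.50 without it, against 7.34 in each AF0 name computed the same way. Serpina3n was at 118.3 in AF1, 102.4 in AF2, 31.0 in AF0_2, 20.1 in AF0_1 and 1.72 to 7.05 in the NF names. These levels are between wells of 1 library, and Saa3, Ccl8 and Serpina3n belong to gene families whose similar members can share reads.

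**Figure D3:**
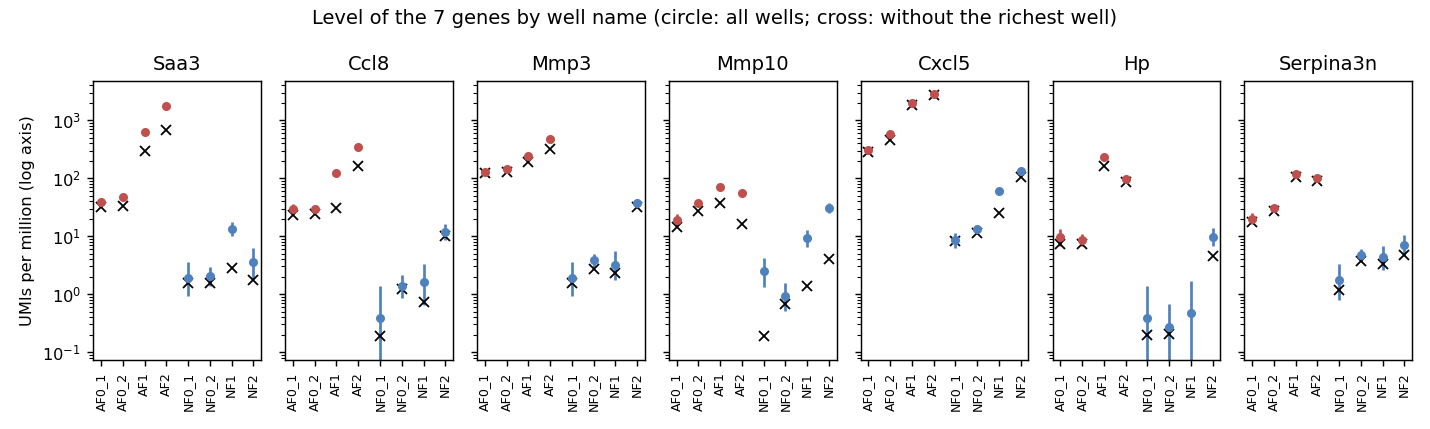
CPM (log axis) of each of the 7 genes over all wells of a name, with exact Poisson intervals, AF names in red and NF names in blue; crosses give the level without the richest well. Cxcl5 runs from 8.62 in NF0_1 to 2883 in AF2, and the crosses show how far Saa3 and Ccl8 in AF1 and AF2 rest on 1 well.

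The richest wells differed in which gene they held. The well with the highest sum, an AF2 well of 188125 UMIs, had 8545 UMIs of Saa3, 1408 of Ccl8, 362 of Cxcl5 and 219 of Mmp3, and none of Hp, Mmp10 or Serpina3n. The next, an AF1 well of 90126 UMIs, held all 7 genes, with 2106 of Saa3, 554 of Ccl8, 352 of Mmp3 and 213 of Mmp10. Another AF2 well had 3473 UMIs of Saa3 and none of Ccl8, and yet another had 1249 of Mmp3 and 546 of Ccl8 with 11 of Saa3. A well with 1979 Cxcl5 UMIs had no Saa3. High sums were thus not 1 fixed mixture of the 7 genes.

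Co-detection at equal depth was weak. Among 400 AF wells at 10000 UMIs, 27 of 105 wells with Saa3 also held Ccl8 (25.7%), against 11.2% of wells without Saa3. Mmp10 was found in 13.7% of wells with Mmp3 and in 4.15% of wells without it. Serpina3n was found in 25.7% of wells with Saa3 and in 25.1% of wells without it. Spearman's rho over the 21 gene pairs ran from 0.0063 for Saa3 with Serpina3n to 0.23 for Cxcl5 with Hp, a description over wells that share 1 library and have sparse counts.

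Genes of members were then set against those of the low wells. Of 13778 genes with at least 50 UMIs over both groups, 2503 (18.2%) differed 2-fold or more in CPM, 1683 (12.2%) higher and 820 (5.95%) lower in members. This contrast is mostly one of AF with NF wells, since 232 of 243 members were AF wells and 500 of 517 low wells were NF wells, so the members' pattern and the fibroblasts' age cannot be told apart in the pooled ratio. AF1 (58 members, 11 low wells) and NF2 (10 members, 49 low wells) had at least 5 wells of each kind, and their ratios are given beside the pooled one for some genes and plotted for every named gene. In AF1 the low wells were shallow, with a median of 14262 UMIs against 58786 in members.

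Genes named here were higher or lower in the pooled ratio and on the same side in AF1 and in NF2. Among interferon-inducible genes, Ifi205 had 2250 UMIs in members and 147 in low wells, a log2 ratio of 3.94 (3.70 to 4.19), with 0.70 in AF1 and 1.14 in NF2. Ifi211 had a log2 ratio of 3.38, Ifi35 of 2.34 and the antiviral membrane protein gene Ifitm3 of 2.27, the last with only 0.02 in AF1. Ifi205 and Ifi211 belong to a family of near-identical genes and their counts are uncertain.

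Several of these genes encode secreted or surface proteins. Lgals3bp, a galectin-binding glycoprotein, was found in 84.0% of members and 22.4% of low wells, with a log2 ratio of 3.22. The acute-phase pentraxin Ptx3 was found in 84.8% and 31.1%, with a log2 ratio of 2.17, and 1.26 in AF1 but 0.25 in NF2. The Wnt antagonist Frzb (1.99), the syndecan Sdc1 (1.93) and the matricellular Ccn1 (1.92, but 0.05 in AF1) were also higher. Among membrane proteins, Tmem176a had a log2 ratio of 3.25, Tmem45a of 2.59 and the metal reductase Steap2 of 2.46. Fosb, an AP-1 subunit, had 2.56 but 0.16 in NF2, and Errfi1, an inhibitor of EGF receptor signalling, had 2.16 with 2.04 in AF1 and 1.12 in NF2.

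Lower genes included a sarcomere gene. Titin, Ttn, had 571 UMIs in members and 9515 in low wells, a log2 ratio of -4.05, with -4.19 in AF1 and -0.02 in NF2. All 13 cardiomyocyte markers were at least 2-fold lower in members, whose summed cardiomyocyte marker level had a median of 79.9 CPM (0 to 22886) against 1397 (0 to 71955) in low wells. These markers moved with the group, and most low wells were NF wells. The part of these markers in the other ratios was not tested. Lower genes further included Cspg4, a surface proteoglycan of pericytes (-2.19), Sprr1a (-1.82), the collagen gene Col14a1 (-1.57, but -0.08 in AF1), the receptor phosphatase Ptprd (-1.71), Fhl3 (-1.52), Zfp3 (-1.51), Gm26558 (-1.43), the protease inhibitor Cst6 (-1.37) and Lmtk3 (-1.24).

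**Figure D4:**
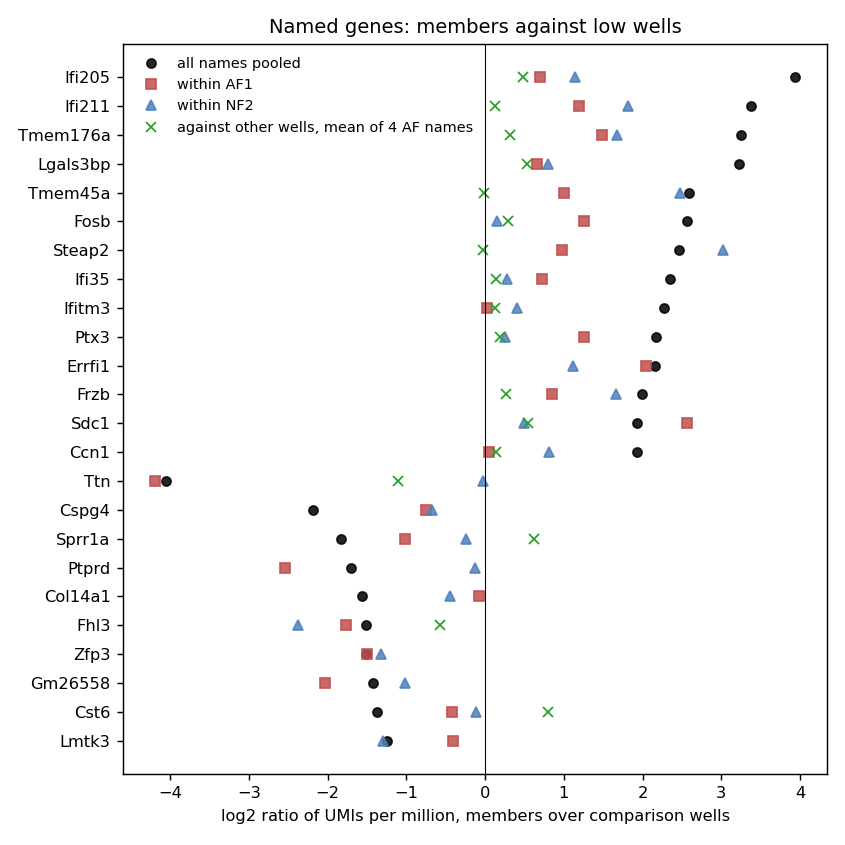
Log2 ratio of CPM of the named genes in members against low wells over all names (black circles), within AF1 (red squares) and within NF2 (blue triangles), and in members against all other wells of the same AF name (green crosses, mean of 4 names, where the gene was tested). The crosses lie nearer to 0 than the pooled ratio for each of the genes that has one, for example 0.48 against 3.94 for Ifi205, and lie on the other side of 0 for Sprr1a (0.62), Cst6 (0.80), Tmem45a (-0.018) and Steap2 (-0.021).

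Other inflammatory genes were read by list against the background of 12.2% of all genes 2-fold higher and 5.95% lower. Of the acute-phase list 7 of 11 tested genes were 2-fold higher and 1 was lower, Cd14. The higher ones included the iron-scavenger gene Lcn2 (log2 ratio 4.41) and ceruloplasmin, Cp (3.07). In AF1, where 20.6% of 8573 genes were 2-fold higher and 17.9% lower, Lcn2 was at -1.51 and Cp at -2.43, and the list had 3 of 8 genes higher and 3 lower. The complement list had 6 of 9 genes 2-fold higher and 2 lower, C1qa and Cfp. C3 was at 4.65, C1s1 at 3.52 and the inhibitor Serping1 at 2.81. In AF1, however, 0 of 6 complement genes were higher and 4 were lower, with C3 at -0.26. Of the chemokines 7 of 13 were 2-fold higher and 1 was lower. Ccl7 had 86125 UMIs in members (log2 ratio 1.81, and -0.46 in AF1) and Ccl2 was found in 100% of members and 94.4% of low wells (1.20, and -0.38 in AF1). In AF1 1 of 7 chemokines was 2-fold higher.

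Of 8 cytokines tested in the pooled ratio, 4 were 2-fold higher and 1 was lower, and in AF1 2 of 3 were higher. Cytokines of the interleukin-6 family had the same side in the pooled ratio and in AF1. Il6 was found in 58.0% of members and 5.03% of low wells, with a log2 ratio of 4.66 and of 2.49 in AF1, and Lif had 2.53 and 1.10. Csf3 had 534 UMIs in 2.88% of members. NF-kB genes and targets were 2-fold higher in 10 of 18 cases and lower in 1. The prostaglandin synthesis genes Ptges (4.97, and -0.04 in AF1) and Ptgs2 (2.60, and -0.48 in AF1) were highest, and the subunit gene Rela was at -0.05. The NF-kB inhibitor Tnfaip3 had 1.64, and 3.25 in AF1 but below 0 in NF2. C/EBP and STAT3 genes were 2-fold higher in 4 of 9 cases, with Socs3 at 1.88 and Cebpb at 0.27. Receptors were 2-fold higher in 6 of 15 cases and lower in 1. In AF1 the counts were 3 of 17 for NF-kB genes and targets, and 0 of 7 for C/EBP and STAT3 genes, with 1 of the 7 lower. For receptors the AF1 count was 3 of 12, with 3 of the 12 lower.

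Interferon response genes had the highest list median, 4.03 on the log2 scale against 0.07 over all genes, and 21 of 23 were 2-fold higher. Rsad2 had a log2 ratio of 6.98, Ifit1 of 6.41 and Ifi44 of 6.19, while Ifit2 was at -0.11 and Irf1 at 0.22. In AF1 the list median was 0.56, and 5 of 22 genes were 2-fold higher and 1 was lower. Immediate early genes were 2-fold higher in 11 of 13 cases in the pooled ratio. In AF1 4 of 12 were higher and 1 was lower. Fos was at 2.09 pooled and -0.19 in AF1. Matrix genes had a median of -0.23, with decorin, Dcn, at 2.99 (-1.68 in AF1) and periostin, Postn, at -1.77 (0.48 in AF1). The list of myofibroblast genes had 0.10 and the cell cycle list 0.45, with 2 of 14 and 2 of 24 genes 2-fold higher. Proteases and their inhibitors were 2-fold higher in 6 of 20 cases and lower in 3, and adventitial fibroblast genes were higher in 6 of 11, with Ly6a the highest of them. In AF1 these counts were 4 of 16 and 3 lower for proteases, and 4 of 8 and 2 lower for adventitial genes. They were 1 of 13 and 1 lower for myofibroblast genes, and 7 of 23 and 3 lower for the cell cycle list.

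Because so few AF wells were low, members were also set against all other wells of the same AF name, a comparison chosen after the data were seen. The mean of the log2 ratios within AF0_1, AF0_2, AF1 and AF2 was used, for 6910 genes that could be tested in all 4 names. Of these, 218 (3.15%) differed 2-fold or more, 165 (2.39%) higher and 53 (0.767%) lower in members, and the 165 include 4 genes of the rule. The AF members had a median of 65876 UMIs against 23030 in the other AF wells. The rule's own genes led, with Ccl8 at 4.61, Saa3 at 3.69 and Mmp3 at 2.21, while Serpina3n was at 1.13 and Cxcl5, which almost all AF wells held, was at 0.50. Thinned to 10000 UMIs, 4 of 2256 genes were 2-fold higher and 0 lower.

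Within AF names few genes of the other inflammatory lists were past 2-fold, though many lay above 0. The list median was 0.25 for acute-phase genes, 0.31 for complement, 0.18 for chemokines, 0.37 for NF-kB genes and targets and 0.41 for interferon response genes, against 0.05 over all genes. It was -0.0021 for C/EBP and STAT3 genes, of which 3 of 6 lay above 0. For the 3 cytokines tested it was 0.37, none was 2-fold higher, and Il6 was the lowest of the 3. For receptors it was 0.26, and none of 11 was 2-fold higher. None of 7 acute-phase genes and none of 7 chemokines was 2-fold higher, but 1 of 6 complement genes (C3, 1.12, from -0.86 to 4.41 over the 4 names), 1 of 13 NF-kB genes (Tnfaip3, 1.07) and 2 of 14 interferon genes (Gbp3, 1.23, and Irf7, 1.01) were. Irf7 and Gbp3 were above 0 in each of the 4 names. Of the interferon genes 13 of 14 and of the NF-kB genes 12 of 13 had a mean ratio above 0, as did 3935 of all 6910 genes. Among the genes named above, Sprr1a (0.62) and Cst6 (0.80) were higher in members here, on the other side from the pooled ratio. Cell cycle genes had a median of -0.31, and 3 of 21 were above 0. The mean ratio was thus under 2-fold for most of the listed genes that could be tested, though a mean over names can hide opposite values, as for C3. Most of the other AF wells were not low wells, with 189 wells between and 17 low wells. Of AF wells, 72 had 20 or more UMIs but fewer than 3 of the rule's genes, and count among the other wells here.

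The 45 AF1 and AF2 members with 200 or more UMIs over the 7 genes were set against the other 200 AF1 and AF2 wells, again a comparison chosen after the data were seen. Of 10990 genes, 2213 (20.1%) differed 2-fold or more, 818 (7.44%) higher and 1395 (12.7%) lower. These members had a median of 104654 UMIs against 26648. Of the complement genes 4 of 7 were 2-fold higher, including the inhibitor Cd55 (1.20), which was at -1.19 in AF1 and 2.88 in AF2. C1ra, a protease of the classical pathway, was at 49.4 against 8.14 CPM (log2 ratio 2.60, and 1.76 without its richest well), C3 at 97.0 against 24.8 (1.97, and 1.67) and Serping1 at 497.0 against 152.1 (1.71, and 1.48). At 10000 UMIs Serping1 was found in 80% of these members and 47.9% of the other wells, and C3 in 28.9% and 10.1%.

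Other secreted factors followed in part. Of 6 cytokines tested, 3 were 2-fold higher and 2 were lower, Il1rn and Tslp. Of 10 acute-phase genes, 1 was 2-fold higher, Lcn2, and 1 was lower, Cd14. Lcn2 had a log2 ratio of 1.68, 1.15 in AF1 and 2.21 in AF2, and Il6 had 1.34, 2.01 in AF1 and 0.89 in AF2. Without the richest well of each, Lcn2 was at 1.13 and Il6 at 0.96. Lif had 1.28 and fell to 0.82 without its richest well, and the Csf3 ratio of 1.38 rested on 1 well that held 91.4% of its UMIs and was -2.11 without it. Ptgs2 had 1.93 (1.57 without its richest well) and Ptges 1.78 (1.31), both above 1 in AF1 and in AF2. As the ratio of the mean of wells, Ptgs2 was at 0.96 and Lcn2 at 0.84, under 2-fold. Tnfaip3 had 1.18. Of 12 chemokines other than Cxcl5 and Ccl8, 1 was 2-fold higher and 3 were 2-fold lower, with a median of 0.21. Ccl7 was at 0.90, Cxcl1 at 0.78 and Ccl2 at 0.59, while Ccl9, Cx3cl1 and Ccl5 were the 3 lower ones. The interferon list had 2 of 23 genes 2-fold higher, Rsad2 at 1.08 (0.26 without its richest well) and Psmb8 at 1.01 (0.85), and a median of 0.53 against -0.10 over all genes. Fibroblast markers had a median of 0.43, and the transcription factor gene Tcf21 (1.21) was the 1 of 14 that was 2-fold higher. All 8 cardiomyocyte markers that could be tested were 2-fold lower in these members, as were 5 of 7 macrophage and 5 of 10 endothelial markers.

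Markers of other cell types were read in the same wells. In the 45 upper-end members at 10000 UMIs, 2 wells held at least 3 of 14 macrophage markers, 1 held 3 of 12 endothelial markers, 2 held 3 of 13 cardiomyocyte markers and 0 held 3 neutrophil markers. C1qa, C1qb and C1qc were at 0 in them. At least 3 cardiomyocyte markers were held by 25 of 238 members and by 198 of 389 low wells (50.9%), most of which were NF wells. Among AF wells alone, they were held by 17 of 227 members (7.5%) and by 10 of 173 other wells (5.8%). Over all members 8 of 238 wells held 3 macrophage markers (23 of 389 low wells), 35 held 3 endothelial markers (33 low wells) and 36 held 3 mesothelial markers (3 low wells). The 36 wells with mesothelial markers were all AF0_1 or AF0_2 members, where 21 of 78 non-members held such markers too. Among AF wells, 3 endothelial markers were held by 33 of 227 members (14.5%) and by 39 of 173 other wells (22.5%), the other way from the pooled shares. Of the 10 NF2 members 7 held 3 cardiomyocyte markers, as did 32 of 65 other NF2 wells. The part of these markers in the results was not tested, and the share of AF wells that were members was 50% when wells with 3 macrophage markers in the counts before thinning were left out.

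The same rule found 67 of 1344 wells on the cardiomyocyte chip. They were 11 of 160 wells in AFNCM1 (6.88%), 23 of 193 in AFNCM2 (11.9%) and 33 of 186 in AFNCM3 (17.7%), against 0 of 533 in the NFNCM names, which allows up to 0.690%, and 0 of 272 in the NCM0 names. Cxcl5 was at 728.4 CPM in the AFNCM names, 50.7 in the NFNCM names and 10.1 in the NCM0 names. At 10000 UMIs 61 of the 62 wells deep enough held 3 fibroblast markers and 62 of 62 held 3 cardiomyocyte markers. Their summed cardiomyocyte marker level had a median of 9609 CPM against 36694 in AFNCM wells that did not pass, and their fibroblast marker level 9565 against 3050. At least 3 fibroblast markers were also found in 76.0% of AFNCM wells that did not pass and in 76.1% of NCM0 wells, and at least 3 cardiomyocyte markers in 100% of both, so these shares do not set the passing wells apart.

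The bulk libraries allowed a test between imCM-AF and imCM-NF. They hold imCMs and not the fibroblast fraction, so they do not test the contrast of AF and NF fibroblast wells. Libraries of imCMs held transcripts of all 7 genes, in which fewer cells of a type and less RNA per cell cannot be told apart. With edgeR's quasi-likelihood test over 14041 genes, 864 genes were called higher (6.15%) and 700 lower (4.99%) in imCM-AF, 1564 in all (11.1%), where a call needed a change beyond 0.58 on the log2 scale and an adjusted p below 0.05. The count was 879 without imCM-NF replicate 2 and 988 without the second imCM-AF library. Of the 7 genes 4 rose and 1 fell.

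Mmp10 was at 0 and 0.41 CPM in imCM-NF and at 5.75 and 4.03 in imCM-AF, and rose by 4.30 ± 0.52 on the log2 scale (± SE, 2 libraries in each group, edgeR adjusted p 1.51e-05). The fitted value was 8.70 when imCM-NF replicate 2 was left out, which depends on the prior count because the remaining imCM-NF library held 0. Ccl8 was at 0.11 and 0.083 CPM against 1.10 and 2.10, a change of 3.94 ± 0.70 (edgeR adjusted p 0.000592) that rested on 2 counts in the imCM-NF libraries against 37. The ratio of these counts was 17.1, with an exact counting interval of 4.40 to 146.1. Mmp3 rose from 52.1 and 46.4 to 140.7 and 117.7 CPM (1.39 ± 0.11, edgeR adjusted p 1.57e-07). Saa3 rose from 49.5 and 46.2 to 77.2 and 74.2 CPM (0.66 ± 0.095, edgeR adjusted p 8.75e-05). For each of these genes both imCM-AF libraries lay above both imCM-NF libraries.

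Cxcl5, the gene most common in members, was at 286.0 and 343.8 CPM in imCM-NF and at 377.9 and 366.7 in imCM-AF. Its change of 0.24 ± 0.11 was not called (edgeR adjusted p 0.127). Serpina3n fell, from 180.2 and 175.4 to 83.7 and 69.2 CPM (-1.22 ± 0.11, edgeR adjusted p 3.82e-07). Hp was at 36.1 and 29.3 CPM against 20.9 and 22.7, a change of -0.58 ± 0.13 that missed the fold threshold (edgeR adjusted p 0.00285) and was called without imCM-AF replicate 2 (-0.63) or without imCM-NF replicate 2 (-0.72). On the chips, both of these genes were higher in CPM in the pooled AF or AFNCM wells than in the pooled NF or NFNCM wells. By name, Hp in AF0_1 and AF0_2 was not above NF2 on the fibroblast chip.

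Related genes in bulk were mixed. The complement list had 6 of 13 genes called higher, among them C2 (1.71 ± 0.29), C3 (0.82 ± 0.097) and Serping1 (0.62 ± 0.10), and 1 lower, C1qa. Of 13 chemokines 6 were higher and 1 lower, and Ccl2 had -0.26 ± 0.12. Acute-phase genes had 2 higher (Ptx3, 0.83 ± 0.11, and Lcn2, 0.73 ± 0.11) and 2 lower (Serpina3g, -1.60 ± 0.12, and Steap4, -1.08 ± 0.12) of 13. Il6 was the 1 cytokine of 11 that was called (1.07 ± 0.12, edgeR adjusted p 5.20e-06). Interferon response genes were higher in 20 of 23 cases, with a median of 1.15. The NF-kB list had 3 of 19 higher, Ptgs2, Ptges and Tnfaip3, and 1 lower, Nfkb2. Fibroblast markers were lower in 7 of 14 cases and higher in 1, and cardiomyocyte markers were higher in 2 and lower in 1 of 13. The part of these markers in the changes was not tested.

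**Figure D5:**
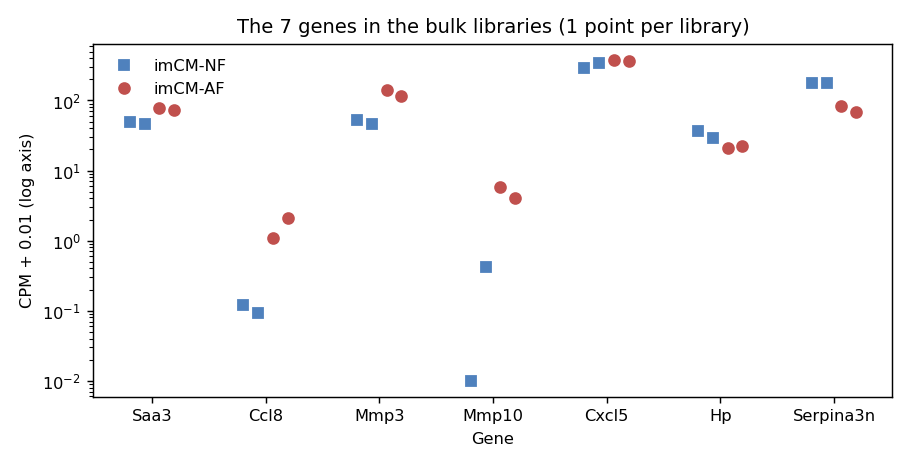
CPM plus 0.01 (log axis) of the 7 genes in the 2 imCM-NF libraries (blue squares) and the 2 imCM-AF libraries (red circles). Both imCM-AF libraries lie above both imCM-NF libraries for Saa3, Ccl8, Mmp3, Mmp10 and Cxcl5, and below them for Hp and Serpina3n.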

How the data were processed

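The authors deposited UMI counts per Ensembl gene and well for each ICELL8 chip, with a report of well names, and raw read counts per RefSeq gene for 4 bulk libraries (9278909 to 12088577 counts). Per the study's methods and processing notes, chip reads were aligned to mm10 with STAR 2.5.2b and counted per Ensembl gene with featureCounts, and bulk reads were aligned to mm10 with subread and counted per RefSeq gene. The notes also name Subread 1.4.6-p1, with no role given, and use of strand is not given in the sources used here. Spike-in columns were not used, mitochondrial genes were left out, and control wells served as background only. Members and gene lists were chosen with earlier results of these data known. Levels are CPM of non-mitochondrial UMIs over a group of wells. Shares have exact binomial (Clopper-Pearson) intervals and sums exact Poisson intervals, at 95%. Wells were thinned to 10000 UMIs by random draw without replacement. A gene at 0 in a group was given a floor of 3 UMIs over the group.

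Named genes were the 15 highest and 10 lowest ratios with at least 200 UMIs and 25% of wells in the higher group, on the same side in every well name with 5 members and 5 low wells, the 7 rule genes, and from each list the extremes and those past 2-fold; further list genes were chosen after their values were seen. A gene that the rule named is not reported here. Bulk libraries were compared with edgeR 4.0.16 (TMM, group as the only term, CPM over 1 in at least 2 libraries, Benjamini-Hochberg over all tested genes), tested on simulated data; SE is the log2 fold change over the square root of F. Nothing says that the libraries came from separate cultures, so p-values may measure technical spread.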

Additional observations from a re-analysis of the deposited data

Results flagged for a closer look

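Serpina3n and Hp went opposite ways in the bulk libraries and on the cardiomyocyte chip, both of which compare imCMs grown with AFs and with NFs; the difference between the assays was not tested. In bulk, Serpina3n had a log2 fold change of -1.22 and Hp of -0.58 in imCM-AF, with both imCM-AF libraries below both imCM-NF libraries. On the chip, which is 1 library, Serpina3n was at 27.9 to 39.8 CPM in the 3 AFNCM names and at 0.45 to 7.34 in the 3 NFNCM names. Hp was at 11.1 to 85.7 and 0.22 to 0.69. The NFNCM levels rested on 2 to 39 UMIs per name for Serpina3n and on 1 to 3 for Hp.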

How the results depend on the processing

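The share of AF wells that were members (53.0%) was 61.0% with a minimum of 10 UMIs, 36.8% with 40, 26.0% after thinning, 33.1% at 1000 CPM, 16.2% with at least 5 genes, and 44.1%, 37.2%, 25.3% and 47.3% without Saa3, Mmp3, Cxcl5 or Serpina3n in the rule. The NF share (1.82%) was 0.165% with 40 UMIs, at 1000 CPM or without Mmp3, 0 after thinning, 0.495% with 5 genes or without Cxcl5 and 0.404% without wells holding 3 macrophage markers before thinning. The study's filter on alignment and UMIs gave 50.9% and 1.73%, and leaving out the deepest 5% of wells, chosen after seeing the data, 50.9% and 1.72%. The AF share was above the NF share under each of these.

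The 2503 genes past 2-fold between members and low wells became 835 of 4471 as the mean of AF1 and NF2, 1149 of 9246 after thinning and 1281 with 200 UMIs per gene, each of which tests fewer genes; leaving out any 1 well name gave 2438 to 2699. With thinning, 4 of 2256 genes were past 2-fold within AF names (218 of 6910 without it) and 732 of 5708 for the upper-end members (2213 of 10990). None of the 32 genes followed (the 7 rule genes and 25 named genes) changed side where an alternative of the comparison with low wells gave a value. This was largely fixed by the choice of genes and is no support. The 7 rule genes set the groups, and the 25 were chosen for a large ratio on the same side in AF1 and NF2. Sprr1a, Cst6, Tmem45a and Steap2 changed side in the comparison within AF names.

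The bulk count of 1564 was 1078 with DESeq2 and 3789 without a fold threshold. Leaving out 1 library gave 879 to 1929 calls, 879 when imCM-NF replicate 2 was left out and 988 when it was imCM-AF replicate 2. With the replicate block it was 1430, and no call of the 7 genes changed; deviations of same-numbered libraries correlated at -0.13, and a crossed pairing, added after seeing the data, gave 1668. Hp was called at -0.59 without a filter, -0.58 by adjusted p alone and under the crossed block, and ranged from -0.72 to -0.43 with 1 library left out. With 1 library left out, Saa3 ranged from 0.62 to 0.71, Mmp3 from 1.27 to 1.52, Cxcl5 from 0.11 to 0.39, Serpina3n from -1.35 to -1.08, Ccl8 from 3.73 to 4.12 and Mmp10 from 3.52 to 8.70, the last 2 tested only with both imCM-AF libraries.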
